A study of Brassica napus with 6 samples.

Results

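The rapeseed genes described here as copies of beta-D-xylosidase 1 (BXL1) were the 4 rows, of 3248 genes in the deposited table, whose Swiss-Prot description names a beta-D-xylosidase. All 4 carried the Arabidopsis locus AT5G49360, and no row was described as another member of the family. The sequenced RNA came from the silique wall, the pod tissue around the seeds, of Brassica napus at 15 days after flowering. One pool combined 12 accessions with long siliques and the other 11 accessions with short siliques, all described as lines from an association population, and each pool gave 3 libraries. The labels name no genotype beyond silique length and no treatment, and do not say whether replicate libraries stem from different plants, so the spread given here may be technical. Because accessions were pooled, the SD, SE and FDR given here do not measure the spread between accessions. The table holds genes that the authors had selected on their own comparison of these pools, with an FDR no higher than 0.05 and a log2 fold change of 1 or more in either direction. The copies were therefore selected on the contrast described below, and every difference between the pools is given as a description without a test. Other copies of the locus and other beta-D-xylosidases were not analysed here.

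Beta-D-xylosidases are secreted or wall-bound enzymes that remove xylose from the ends of xylan fragments. In Arabidopsis, BXL1 is bifunctional and also releases arabinose from the side chains of pectin. It is known there from tissues that form secondary walls and from the seed coat, where it trims arabinan so that mucilage can be released. Its transcript is also known to accumulate in Arabidopsis when sugar is scarce.

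All 4 copies were lower in the long pool than in the short pool, and in each of them every long library stood below every short library, except that BnaC09g02680D overlapped under TMM scaling over the listed genes. Summed over the copies, the deposited FPKM (reads scaled to gene model length and library total) was 6.73, 5.70 and 6.68 in long libraries 1, 2 and 3. It was 46.7, 32.1 and 33.7 in short libraries 1, 2 and 3. The mean sum was 6.37 ± 0.581 (SD, n = 3) for long and 37.5 ± 8.02 (SD, n = 3) for short siliques, a 5.89-fold difference in mean summed FPKM. For comparison, 65.6% of all listed genes (2132 genes) were lower in the long pool. Every long library was below every short library in 62.2% of all listed genes (2020 genes). The second share counts separation in that direction only, so most genes listed as lower were separated like the copies. The authors' FDR and p-values imply 65264 tested genes, of which 3.27% were listed as lower. Because the table was selected on this contrast, nothing is read from these counts. Recovered library totals lay between 22892442 and 30259269 reads, and in bulk tissue fewer cells with the transcript and less transcript per cell cannot be told apart.

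**Figure D1:**
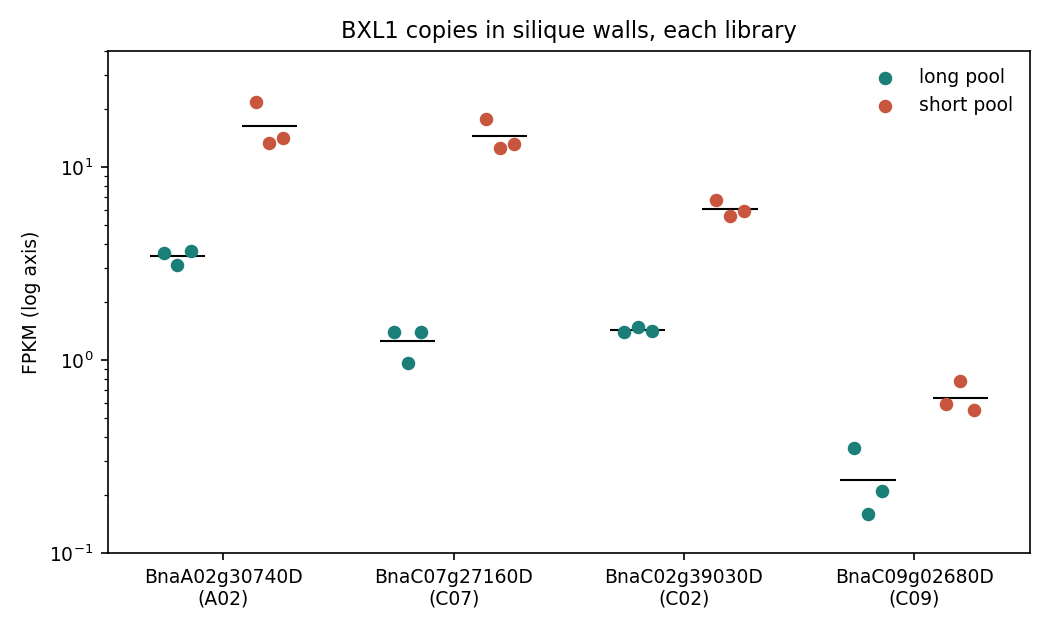
FPKM of each BXL1 copy (x axis, with its chromosome) on a log axis, with 1 point per library, offset sideways in replicate order, and a black line at the mean of each pool. In every copy the 3 long libraries (green) lie below the 3 short libraries (red), with the widest gap for BnaC07g27160D.

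The copy with the widest difference was BnaC07g27160D (C07, 32759181 to 32763739 on the authors' Darmor-based annotation). Its FPKM was 1.39, 0.97 and 1.39 in long libraries 1, 2 and 3, from 99, 81 and 88 reads. In short libraries 1, 2 and 3 its FPKM was 17.8, 12.5 and 13.1, from 1254, 1016 and 982 reads. The lowest short library was thus far above the highest long library. Scaled to the recovered totals, the copy stood at 3.46 ± 0.675 CPM (counts per 1e6 reads; SD, n = 3) for long and 40.1 ± 7.96 CPM (SD, n = 3) for short siliques. This is an 11.6-fold difference in mean CPM, and edgeR fitted a log2 fold change of -3.54 ± 0.22 (SE), with long over short as the direction here and below. In the authors' deposited table its log2 fold change was -3.44 with an FDR of 1.56e-95, the 10th smallest p-value of all listed genes.

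BnaA02g30740D (A02, 22180981 to 22185890) was the most abundant copy per length in both pools. Its FPKM was 3.60, 3.09 and 3.67 in the long libraries and 21.7, 13.2 and 14.1 in the short libraries, in replicate order. Short library 1 stood above the other short libraries, which were close to each other. The copy had 9.66 ± 0.876 CPM (SD, n = 3) for long and 45.8 ± 12.9 CPM (SD, n = 3) for short siliques, and a fitted log2 fold change of -2.24 ± 0.21 (SE, edgeR). Without short library 1 this value was -1.99. The authors' deposited table gave -2.21, with an FDR of 8.07e-38, at rank 53 by p-value.

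BnaC02g39030D (C02, 42022704 to 42028747) lies on the chromosome homoeologous to A02. Its FPKM was 1.39, 1.48 and 1.41 in the long libraries and 6.72, 5.57 and 5.91 in the short libraries, in replicate order. This copy varied least between libraries of a pool. It stood at 3.88 ± 0.135 CPM (SD, n = 3) for long and 16.5 ± 1.60 CPM (SD, n = 3) for short siliques, with a fitted log2 fold change of -2.08 ± 0.20 (SE, edgeR). The authors' deposited table gave -2 with an FDR of 6.86e-48, at rank 33.

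BnaC09g02680D (C09, 1533223 to 1537851) was the least abundant copy. It had 24, 13 and 13 reads in long libraries 1, 2 and 3 and 40, 61 and 40 reads in short libraries 1, 2 and 3. Its FPKM was 0.35, 0.16 and 0.21 in the long and 0.59, 0.78 and 0.55 in the short libraries. The pools did not overlap, but the gap between the highest long and the lowest short library was the narrowest of the copies. With TMM over the listed genes the pools of this copy overlapped, at 1.20 CPM in long library 1 against 1.16 CPM in short library 3. The fitted log2 fold change was -1.41 ± 0.37 (SE, edgeR), and between -1.78 and -1.18 when single libraries were left out. The authors' deposited table gave -1.15 with an FDR of 2.98e-04, at rank 1858.

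Ordered by mean FPKM in the short pool, the copies were BnaA02g30740D (16.3 ± 4.62, SD, n = 3), BnaC07g27160D (14.5 ± 2.87), BnaC02g39030D (6.07 ± 0.591) and BnaC09g02680D (0.640 ± 0.123). Only the first and second of these had libraries that overlapped between neighbours in the order. In the long pool the order was BnaA02g30740D (3.45 ± 0.317), BnaC02g39030D (1.43 ± 0.0473), BnaC07g27160D (1.25 ± 0.242) and BnaC09g02680D (0.240 ± 0.0985). There the C02 and C07 copies met at 1.39, so the C07 copy stood beside the A02 copy in the short pool and beside the C02 copy in the long pool.

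The share of each copy in the summed FPKM showed the same shift. BnaC07g27160D made up 20.7%, 17.0% and 20.8% of the sum in long libraries 1, 2 and 3. In short libraries 1, 2 and 3 it made up 38.0%, 39.0% and 38.8%, so that every short library was above every long one. BnaA02g30740D gave a mean of 54.2 ± 0.724% (SD, n = 3) for long and 43.2 ± 2.77% (SD, n = 3) for short siliques. BnaC02g39030D gave 22.6 ± 2.94% and 16.4 ± 1.77%, and BnaC09g02680D 3.72 ± 1.30% and 1.77 ± 0.595%. The FPKM ratio of the A02 copy to the C02 copy was 2.59, 2.09 and 2.60 in the long and 3.22, 2.38 and 2.39 in the short libraries, which overlapped. The FPKM ratio of the A02 copy to the C07 copy was 2.59, 3.19 and 2.64 in the long and 1.22, 1.06 and 1.08 in the short libraries, with no overlap. Ratios and shares within a library do not depend on its scaling.

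**Figure D2:**
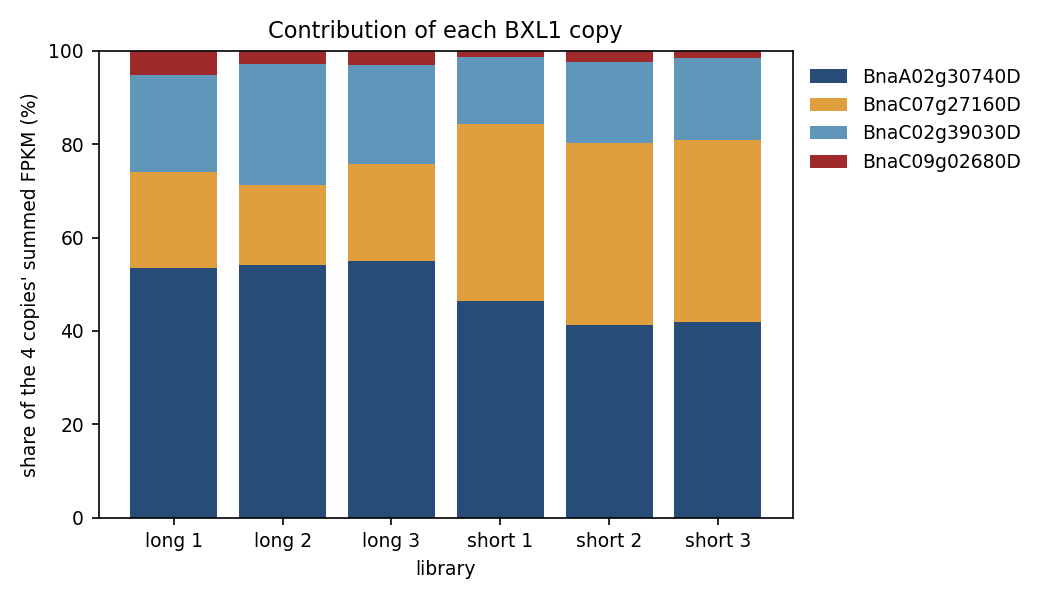
Share of each BXL1 copy in the summed FPKM of the 4 copies (y axis, percent) in each library (x axis). The BnaC07g27160D segment (orange) covers 17.0% to 20.8% in the long and 38.0% to 39.0% in the short libraries.

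The gene models of the copies were compared by length only. Their genomic spans were 4910 bp for BnaA02g30740D, 4559 bp for BnaC07g27160D, 6044 bp for BnaC02g39030D and 4629 bp for BnaC09g02680D. The lengths that the deposited counts and FPKM imply, which leave out introns, lay closer together, at 2799, 2771, 2715 and 2673 bp in the same order. Only uniquely mapped reads were counted per the series design text. How reads that fit more than 1 copy, or reads of accessions that differ from the reference, moved between copies was not tested.

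Within the short pool, library 1 was the highest for 3 of the 4 copies. Its CPM was 1.58 times the mean of short libraries 2 and 3 for BnaA02g30740D, 1.39 times for BnaC07g27160D and 1.17 times for BnaC02g39030D. For BnaC09g02680D it was 0.882 times that mean. Over all 2574 fitted genes the median ratio for short library 1, against the mean of the other short libraries, was 0.993. Among the 1649 fitted genes listed as lower in the long pool, 42.4% had their highest short value in library 1.

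Other listed glycosidases were mostly lower in the long pool too, as were 65.6% of all listed genes. Outside the BXL1 copies the table held 10 genes of other wall glycosidases, 9 lower and 1 higher in the long pool. Their median fitted log2 fold change was -1.60 over the 9 that passed the low-count filter. The median over all 2574 fitted genes, higher and lower together, was -1.22. On the authors' values the 10 genes had a median of -1.625, against -1.49 over all genes listed as lower. Of these 10 genes, 5 encode beta-galactosidase 4 (BGAL4), an enzyme that removes terminal galactose, and all 5 were lower. Their summed FPKM was 14.4, 15.8 and 16.5 in the long and 74.8, 53.8 and 41.3 in the short libraries, in replicate order. The highest by mean FPKM over all 6 libraries, BnaAnng30540D, had an FPKM of 4.42, 4.72 and 5.12 in the long and 25.4, 22.1 and 16.0 in the short libraries, and a log2 fold change of -2.15 ± 0.20 (SE, edgeR). BnaCnng68980D was higher than that gene in every long library and in short library 1, with an FPKM of 5.62, 6.23 and 6.92 in the long and 27.9, 16.8 and 12.2 in the short libraries, and had a log2 fold change of -1.60. Short library 1 was again the highest for both. The descriptions of the other 5 genes name glucan endo-1,3-beta-glucosidase, an enzyme that cuts callose and related glucans, and 4 of them were lower. Of these 4, BnaC01g21880D and BnaA01g17540D are described as the basic vacuolar isoform, so their description does not place them in the wall. The exception, BnaCnng14940D, is described as a glucan endo-1,3-beta-glucosidase-like protein. It had a log2 fold change of 1.15, with an FPKM of 1.24, 2.11 and 1.39 in the long and 0.83, 0.91 and 0.39 in the short libraries. None of the listed genes carried the locus of the alpha-xylosidase XYL1 or of the arabinofuranosidases ARAF1 and ARAF2.

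On the synthesis side, 3 of the 23 loci of the xylan list had a listed gene. Their 5 genes were all lower in the long pool, as were 65.6% of all listed genes. Their summed FPKM was between 7.86 and 8.75 in the long and between 16.6 and 22.7 in the short libraries. The median fitted log2 fold change was -1.28, beside -1.22 over all 2574 fitted genes, higher and lower together. On the authors' values the list's median was -1.24, closer to no change than the -1.49 over all genes listed as lower. The most abundant were a pair of copies of IRX7, a glycosyltransferase of xylan synthesis. BnaC04g39510D had an FPKM of 3.06, 2.90 and 2.63 in the long and 6.84, 7.92 and 5.88 in the short libraries. BnaA04g16260D had 2.26, 2.52 and 2.77 in the long and 7.10, 7.34 and 5.87 in the short libraries. Neither overlapped between pools, nor did any of the 5 genes of the list. Of all listed genes, 62.2% had every long library below every short library. The others, named after their values were seen, were a pair of copies of TBL29, which acetylates xylan, and GUX2, which adds glucuronic acid to it. Fitted log2 fold changes over the xylan list ran from -1.44 to -1.18, closer to 0 than those of the C07, A02 and C02 BXL1 copies.

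Of 9 loci that supply UDP-xylose and UDP-arabinose, 1 had a listed gene, and it went the other way. BnaC05g48410D, a copy of RGP1, which converts UDP-arabinose between its ring forms, had an FPKM of 2.55, 5.67 and 3.75 in the long and 1.08, 1.15 and 1.68 in the short libraries. The pools did not overlap, although the long libraries were widely spread. Its log2 fold change was 1.62 ± 0.31 (SE, edgeR).

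**Figure D3:**
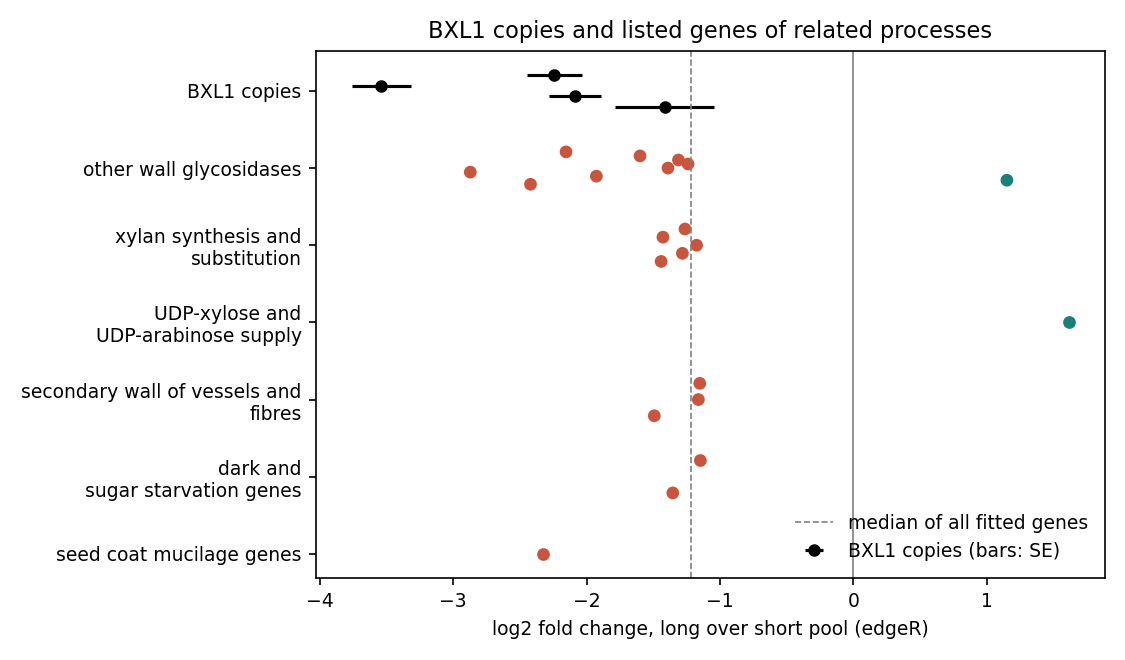
Fitted log2 fold change, long over short, of the 4 BXL1 copies (black, with standard errors) and of the listed genes of 6 related lists that passed the low-count filter (red lower, green higher in the long pool). The dashed line is the median of all 2574 fitted genes, higher and lower together, at -1.22. Of the genes plotted only the BXL1 copy on C07 lies below -3, and the seed list is not plotted.

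The tissues in which Arabidopsis BXL1 is known to act were looked up through their markers. Of the 3 secondary wall cellulose synthase loci, 2 had listed genes, CESA4 with 1 gene and CESA7 with a pair, and all 3 genes were lower in the long pool. Their summed FPKM was 13.5, 9.63 and 9.27 in the long and 32.9, 26.2 and 17.4 in the short libraries, and no listed gene carried the CESA8 locus. Of 7 seed coat mucilage loci 1 had listed genes, a pair of copies of the subtilase SBT1.7, with a summed FPKM of 0.62, 0.67 and 1.01 in the long and 4.38, 3.96 and 3.69 in the short libraries. Of the seed storage and oil body genes 1 was listed, a cruciferin (BnaA09g50780D), with an FPKM of 0.02, 0.04 and 0 in the long and 2.54, 1.14 and 2.52 in the short libraries. With 3 reads in the long and 270 in the short libraries, its difference was wider than that of any BXL1 copy. These markers were lower in the long pool like the BXL1 copies, as were 65.6% of all listed genes, so nothing is read from the shared direction. Their part in the BXL1 difference was not tested. None of the 4 silique wall markers (FUL, IND, SHP1, SHP2) was listed, so the labelled tissue could not be checked in a table of called genes.

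Among 7 loci known in Arabidopsis from darkness and sugar shortage, 3 had a listed gene. All 3 were lower in the long pool, as were 65.6% of all listed genes. A copy of SEN1 (BnaA01g01780D), a senescence-associated gene, had an FPKM of 1.61, 1.15 and 1.92 in the long and 2.74, 3.23 and 4.34 in the short libraries. A copy of DIN10 (BnaA02g04780D), described as a galactinol-sucrose galactosyltransferase, had 0.66, 0.51 and 0.53 in the long and 1.53, 1.07 and 1.76 in the short libraries. The third, a copy of DIN11 named after its values were seen, was listed at 0 in all long libraries and at 0.18, 0.25 and 0.34 FPKM in the short libraries. For SEN1 and DIN11 short library 1 was the lowest of the short libraries, whereas for DIN10 it was short library 2. DIN11 had 23 reads in the short libraries together, so its order rests on few reads.

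Listed neighbours of the copies were counted beside the listed genes of their chromosomes. Within 500 kb of BnaC07g27160D the table lists 3 genes, 1 higher and 2 lower in the long pool, against 45 higher and 85 lower on all of C07. The closest, BnaC07g27150D, lies 0.860 kb away and is described as a hydroxyproline-rich wall protein, with a log2 fold change of -1.14 (edgeR). BnaC07g27220D, 51.8 kb away, encodes bZIP1, a transcription factor known in Arabidopsis from responses to low sugar, and had a log2 fold change of -1.50 (edgeR). Around BnaA02g30740D there were 10 listed genes, 3 higher and 7 lower, against 35 and 109 on all of A02. The closest, BnaA02g30730D, lies 0.425 kb away, is described as trichome birefringence-like 4 and had a log2 fold change of -2.64 (edgeR). Another, 419 kb away, was the SBT1.7 copy BnaA02g29970D. Near BnaC02g39030D there were 2 listed genes, 276 and 341 kb away. Both were higher in the long pool, against 186 higher and 83 lower on all of C02. Near BnaC09g02680D there were 2 listed genes, 1 higher and 1 lower, against 53 and 83 on all of C09.

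**Figure D4:**
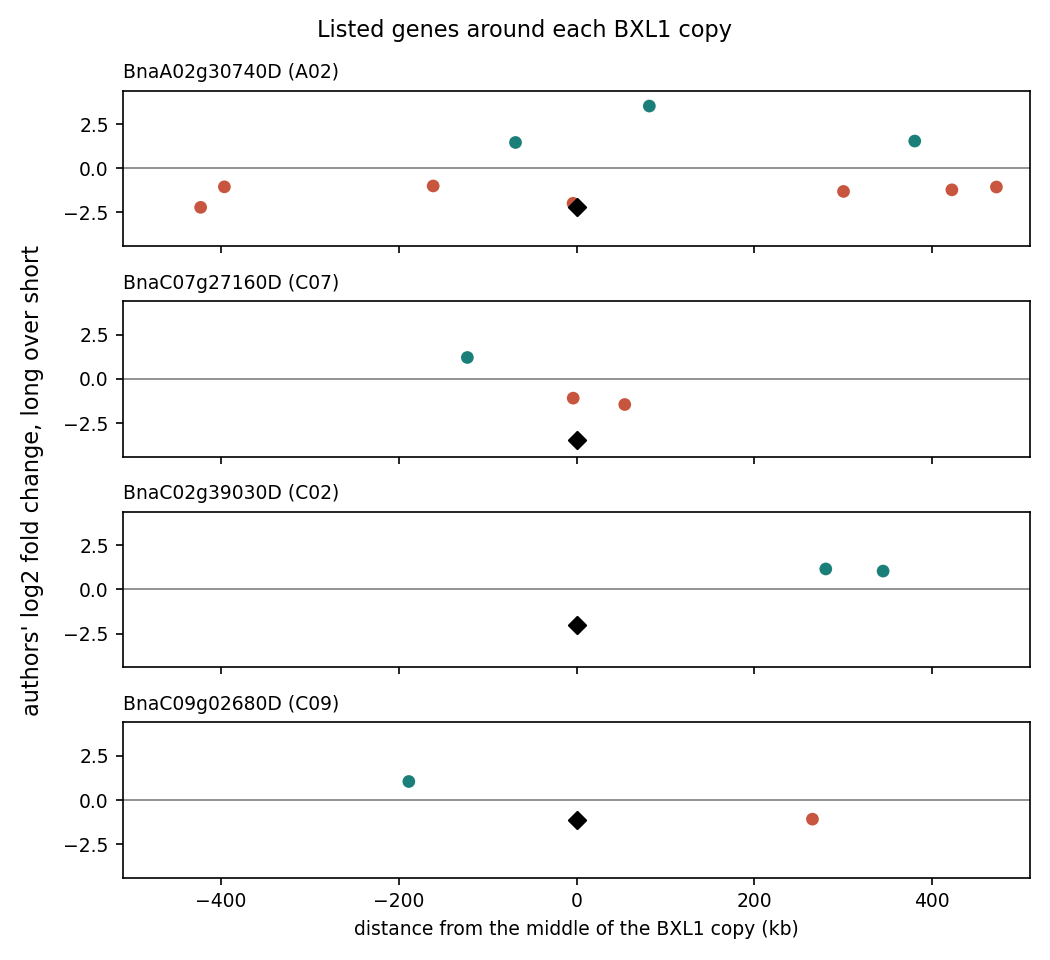
The authors' log2 fold change, long over short, of listed genes within 500 kb of each BXL1 copy (y axis) against the distance of their middle from that of the copy (x axis, kb), with the copy as a black diamond. The closest listed genes to the A02 and C07 copies are lower (red), with higher genes (green) farther off in both windows. Both listed neighbours of the C02 copy are higher, with gaps of 276 and 341 kb.

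The genes whose profile was most like that of BnaC07g27160D were sought among 1190 listed genes with an Arabidopsis locus and a mean of at least 1 CPM. Likeness was the root mean square difference of log2(CPM + 0.5) over the 6 libraries, each profile centred on its own mean. The 5 closest were BnaCnng56390D (0.252), BnaC08g10790D (0.258), BnaA02g24130D (0.260), BnaA01g18090D (0.301) and BnaA02g21140D (0.335). They had between 0 and 26 reads in all long libraries together, so the pseudocount set much of their profile. BnaA02g24130D carries the locus of SAG12, a protease of senescing leaves, and had 24 reads in the long and 565 in the short libraries. With a pseudocount of 0.1 none of these was among the 5 closest, which were then BnaA06g15400D (0.218), BnaC05g39170D (0.273), BnaC06g37710D (0.330), BnaC08g17880D (0.418) and BnaA09g45220D (0.430). All of these 10 genes were lower in the long pool, as the choice by likeness fixes.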

How the data were processed

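RNA-seq libraries of silique walls were compared, 3 per pool, grouped and numbered by their sample titles. Per the series design text, quality-filtered reads were aligned to the Darmor genome and those mapping uniquely were quantified. The aligner and annotation release, not given in the sources used here, are unknown. The submitters' processing notes name edgeR and DESeq2 with no version. The authors deposited read counts per gene and library, without normalization, per the file headers. The authors also deposited FPKM, and log2 fold changes, p-values and FDR from their own test of long against short. Values are present for 3248 genes, all called by the authors, and the 59362 blank rows were dropped.

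Because the listed counts are not a library's depth, totals were recovered from genes with 200 or more counts and an FPKM of 5 or more. Counts were divided by FPKM and by the genomic length, and the total was the median of the values within 0.5% of the 95th percentile. These totals were the library sizes. How many genes the authors had tested was inferred from p and FDR of the first 20 ranks, which allow 65242 to 65287. edgeR 4.0.16 in R 4.3.3 was fitted to all listed genes after filterByExpr, which kept 2574 genes and 4 of the 4 copies. Fold changes are from its quasi-likelihood fit. Standard errors were derived as the absolute log2 fold change over the square root of the F statistic of that fit's test. Fold changes were checked on simulated counts with a fixed dispersion and most genes unchanged. A table of called genes differs from that setting, so the standard errors were not tested for it. Genes were members by description and lists were matched by Arabidopsis locus or description. Members and lists were chosen with earlier results of these data known. List genes were named by mean FPKM, up to 2 lower and 2 higher per list, and neighbours were chosen after their values were seen. The gene IDs matched 0 entries of the RefSeq gene table. Alternatives were other scalings, no filter, DESeq2 1.42.0, FPKM with a pseudocount of 0.1 or 1, a replicate block and leaving out each library.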

Additional observations from a re-analysis of the deposited data

How the results depend on the processing

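All 4 copies were lower in the long pool under every alternative run, and the pools of all 4 did not overlap in CPM or FPKM. In this table, selected on the same contrast, 65.6% of all listed genes were lower by the authors' direction. In CPM, 62.2% had every long library below every short library. In TMM-scaled CPM 3 of the copies did not overlap and BnaC09g02680D did. The size depends on the scaling, because scaling on a table of called genes centres on genes that are not unchanged. TMM over the listed genes moved the median log2 fold change of all fitted genes by 0.75 and DESeq2 size factors moved it by 0.93. With TMM the log2 fold changes were -1.49 for BnaA02g30740D, -2.79 for BnaC07g27160D, -1.33 for BnaC02g39030D and -0.67 for BnaC09g02680D. With DESeq2 size factors they were -1.31, -2.61, -1.15 and -0.49 in the same order. On log2(FPKM + 1), which shrinks low genes, they were -1.93, -2.77, -1.54 and -0.40. Leaving out 1 library gave -2.37 to -1.99 for BnaA02g30740D, -3.63 to -3.36 for BnaC07g27160D, -2.14 to -2.00 for BnaC02g39030D and -1.78 to -1.18 for BnaC09g02680D. With the replicate block the values were -2.21, -3.54, -2.08 and -1.44, within the spread between libraries. Same-numbered libraries did not deviate together (correlations across genes of 0.0411, 0.0104 and 0.0059), so the numbers were not taken to pair libraries. DESeq2, no filter and log2(FPKM + 0.1) also moved each value by less than that spread. The genes most like BnaC07g27160D changed with the pseudocount, with 0 of 5 shared. Depth limits BnaC09g02680D most, with 50 reads in the long and 141 in the short libraries.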
